A study of Mus musculus with 16 samples.

Results

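The glucocorticoid receptor gene Nr3c1, the mineralocorticoid receptor gene Nr3c2 and 5 genes of corticosteroid action (Fkbp5, Sgk1, Tsc22d3, Hsd11b1 and Zbtb16) were followed in single nuclei of the mouse prefrontal cortex (PFC). These 7 members were listed by name, with earlier results of these data known. No threshold on measured values was used, and all 7 were present among the 19999 genes of the deposited count table. The data are single-nucleus RNA sequencing (snRNA-Seq) of 16 male mice, 4 per group, all aged 22 weeks. WT mice were of the B6;129 strain, and 3xTg-AD mice, a model of Alzheimer's disease on the same background, carry mutant human transgenes that include APP and tau under a Thy1 promoter, which is active mainly in neurons. Within each genotype, 1 group was exposed to repeated cycles of intermittent alcohol vapor with ethanol and pyrazole, an inhibitor of alcohol dehydrogenase, and the other group served as control. The study's methods give pyrazole and air to the controls, and mice of all 4 groups had been tested in the Morris water maze before the PFC was taken, days after the last vapor exposure. The WT controls were mice 26, 27, 28 and 36, the alcohol-exposed WT mice were 6, 7, 17 and 18, the 3xTg-AD controls were 12, 13, 14 and 21, and the alcohol-exposed 3xTg-AD mice were 4, 31, 33 and 34. The human transgenes are not counted in the table, so the genotype labels were not checked against them.

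Corticosterone, the main glucocorticoid of the mouse, reaches the brain from the adrenal gland and binds 2 nuclear receptors. The mineralocorticoid receptor binds it with the higher affinity, and the glucocorticoid receptor is occupied during stress and at the daily peak of secretion. The bound glucocorticoid receptor leaves a complex of chaperones, enters the nucleus and activates or represses its target genes, among them Fkbp5, which encodes a co-chaperone that lowers the hormone affinity of the receptor, Sgk1, a serum and glucocorticoid regulated kinase, Tsc22d3, which encodes the leucine zipper protein GILZ, and Zbtb16, which encodes the transcription factor PLZF. Hsd11b1 encodes an enzyme that regenerates active glucocorticoid from its inert 11-keto form inside the cell.

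The libraries held 114512 nuclei, with 4955 to 9096 nuclei and 9622031 to 17544364 UMIs per mouse and a median of 1543 UMIs per nucleus. Nuclei were assigned to 9 broad classes and 12 neuronal subtypes from marker genes, so a name such as oligodendrocyte stands for oligodendrocyte-like nuclei. The classes held 49653 glutamatergic, 11736 GABAergic, 7725 astrocyte, 3360 microglia and perivascular macrophage (microglia-PVM), 2938 oligodendrocyte, 2355 oligodendrocyte precursor (OPC), 697 vascular leptomeningeal (VLMC), 663 endothelial and 443 pericyte nuclei, and 34942 nuclei had no name. Slc17a7, the vesicular glutamate transporter of excitatory neurons, was counted in every class. It stood at 715 CPM (UMIs scaled to a common total per class sum) in glutamatergic nuclei and still at 500 CPM in microglia-PVM, 460 CPM in oligodendrocytes and 225 CPM in GABAergic nuclei. Levels in a class may thus include RNA of other classes. Whether this RNA was free in the suspension or came from mixed nuclei was not tested. In 3 mice (WT controls 26 and 27 and 3xTg-AD control 12) Gm42418, an RNA overlapping ribosomal RNA, took 17914 to 29046 CPM, against at most 4249 CPM in any other mouse. Most named group differences that involve these mice are given with and without them, while some counts and list medians are given only with them. In WT control 27, 1094 of the 1482 GABAergic nuclei were Meis2-like, against 8 to 114 such nuclei in each other mouse. The numbers of 5 exposed mice (17, 18, 31, 33 and 34) are listed with the other genotype in the blood alcohol table of the study, and the labels of the samples were used here. In a check chosen after seeing the data, 9 genes of at least 10 CPM separated the genotypes at least 2-fold over the other 11 mice, and mice 31, 33 and 34 lay nearer their labelled genotype at all 9, mouse 18 at 7 and mouse 17 at 6. At 4-fold or more the genes were Rnf121, Krt12, A830036E02Rik and Gm7324, with 4 of 4 for mice 31, 33 and 34, 2 for mouse 18 and 1 for mouse 17. Gm7324, which stood at 21.9 to 32.5 CPM in the other 3xTg-AD mice and at most 1.65 CPM in the other WT mice, was at 1.20 CPM in mouse 17 and 0.709 CPM in mouse 18. A830036E02Rik stood at 0.912 CPM in mouse 17 and 0.591 CPM in mouse 18, against 48.4 to 145 CPM in the other WT mice and at most 0.766 CPM in the other 3xTg-AD mice. Krt12 stood at 4.05 and 4.49 CPM in mice 17 and 18, against 14.7 to 27 CPM in the other WT mice and at most 3.24 CPM in the other 3xTg-AD mice. Rnf121 stood at 21.3 CPM in mouse 17 and 872 CPM in mouse 18, against at least 213 CPM in the other WT mice and at most 24.9 CPM in the other 3xTg-AD mice, so these genes did not place mice 17 and 18 with a single genotype. A total of 1694 barcodes occurred in more than 1 library.

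The DNA motif bound by the glucocorticoid receptor dimer is a palindrome of the 6-base arm AGAACA, 3 bases of any kind and the reverse complement of the arm, TGTTCT. Promoter windows of 300 bases around annotated transcript starts (RefSeq, GRCm38.p6) were searched for Nr3c2, Fkbp5, Sgk1, Tsc22d3 and Hsd11b1, with 12 windows in all. No window of Nr3c1 or Zbtb16 was searched. The full palindrome, searched on both strands, was found in 3 of 32851 windows (0.00913%), and 1 of those 3 was a start of Sgk1. This window is printed because it holds the only perfect match among the 12 member windows searched, with the palindrome and a further TGTTCT arm in capitals. The palindrome begins at position -189 relative to the start.
Sgk1 (GRCm38.p6, chr10:21993640-21993939, plus strand): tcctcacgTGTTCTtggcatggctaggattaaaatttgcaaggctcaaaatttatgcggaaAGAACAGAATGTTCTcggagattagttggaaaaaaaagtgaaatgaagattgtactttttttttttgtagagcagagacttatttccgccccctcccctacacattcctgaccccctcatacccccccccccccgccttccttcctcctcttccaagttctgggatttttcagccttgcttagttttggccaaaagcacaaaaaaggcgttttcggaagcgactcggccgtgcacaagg
The single 6-base arm (AGAACA on either strand) was found in 4 of the 12 member windows, 3 of Sgk1 and 1 of Tsc22d3, and in 19% of all windows searched. These matches describe the letters of the windows and say nothing of receptor binding in these nuclei. On GRCm38.p6, Hsd11b1 lies at chr1:193221640-193264045, Nr3c2 at chr8:76898083-77245012, Zbtb16 at chr9:48651797-48836225, Sgk1 at chr10:21882184-21999903, Fkbp5 at chr17:28398753-28486149 and Tsc22d3 at chrX:140539528-140600522.

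Levels by cell class are given as CPM of the counts summed per mouse and class, as the mean ± SD over 16 mice (15 for VLMC), and are a description without a test. The counts come from the 3′ ends of transcripts and are not divided by gene length, so levels are compared between classes of nuclei for 1 gene and never between genes. Neighbours in the order of classes were called apart only where the mean of the paired difference over mice exceeded its SD.

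**Figure D1:**
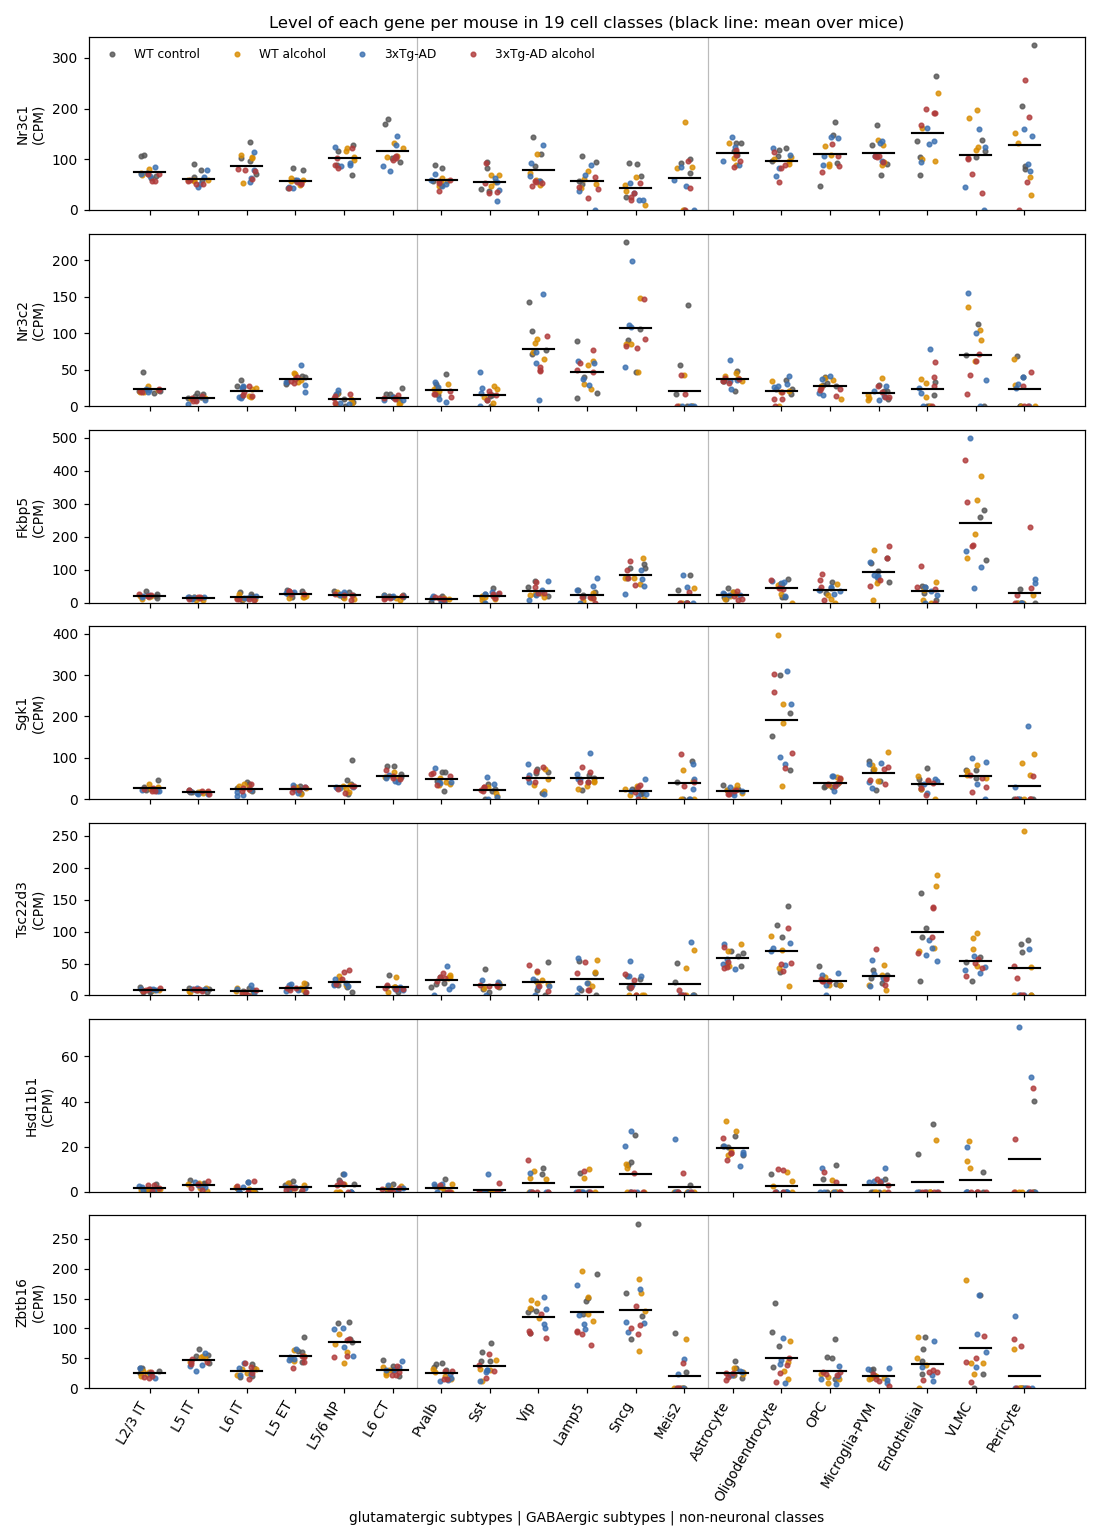
Level of each of the 7 members (CPM, 1 panel per gene) in each non-neuronal class and neuronal subtype, with 1 point per mouse and the mean over mice. Fkbp5 stood highest in VLMC, Sgk1 in oligodendrocytes and Zbtb16 in Sncg, Lamp5 and Vip interneurons. Hsd11b1 had its highest mean in astrocytes, but the step to pericytes did not exceed its spread.

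Nr3c1, the glucocorticoid receptor, was found in every class, with a higher mean in each glial and vascular class than in the glutamatergic and GABAergic classes. Among broad classes it stood at 152 ± 54.1 CPM in endothelial nuclei, 128 ± 85.5 in pericytes, 112 ± 17.7 in astrocytes, 112 ± 24.6 in microglia-PVM, 109.5 ± 32.6 in OPC, 108 ± 53.6 in VLMC and 97.3 ± 19.1 in oligodendrocytes. The neuronal levels were 75.8 ± 14.1 CPM in glutamatergic and 58.7 ± 10.4 in GABAergic nuclei. Only the last 2 steps of this order exceeded their spread, with oligodendrocytes above glutamatergic nuclei in 14 of 16 mice and glutamatergic above GABAergic nuclei in 15 of 16 mice. Within the glutamatergic class the corticothalamic neurons of layer 6 (L6 CT) had 116 ± 28.4 CPM, near-projecting neurons (L5/6 NP) 102 ± 17.9 and intratelencephalic neurons of layer 6 (L6 IT) 86.6 ± 23.7. The corresponding values were 74.3 ± 14.9 in L2/3 IT, 61.5 ± 11.8 in L5 IT and 56.3 ± 11.5 in extratelencephalic neurons of layer 5 (L5 ET). Interneurons ran from 78.0 ± 30.5 CPM in Vip through 58.5 ± 13.2 in Pvalb, 56.9 ± 27.2 in Lamp5 and 55.5 ± 22.1 in Sst to 43.2 ± 25.3 in Sncg, and no neighbouring pair of the finer order differed beyond its spread. L6 CT thus lay among the glial and vascular means, and L5/6 NP above that of oligodendrocytes.

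Nr3c2, the mineralocorticoid receptor, was ordered differently, with its highest mean levels in interneurons that arise in the caudal ganglionic eminence and in VLMC. It stood at 107 ± 50.7 CPM in Sncg, 78.3 ± 35.5 in Vip and 46.9 ± 21.5 in Lamp5 interneurons, against 22.3 ± 9.62 in Pvalb and 16.1 ± 11.6 in Sst. Among glutamatergic subtypes L5 ET had 36.7 ± 8.32 CPM, L2/3 IT 23.3 ± 6.77, L6 IT 20.8 ± 7.25, L6 CT 11.8 ± 5.14, L5 IT 11.2 ± 3.63 and L5/6 NP 10.1 ± 6.74. The L6 CT and L5/6 NP neurons, highest for Nr3c1 within their class, were thus among the lowest for Nr3c2. The broad classes held 70.6 ± 46.7 CPM in VLMC, 37.5 ± 9.74 in astrocytes, 34.4 ± 9.82 in GABAergic nuclei, 27.4 ± 9.68 in OPC, 23.8 ± 23.2 in endothelial nuclei, 23.2 ± 24.1 in pericytes, 21.3 ± 12 in oligodendrocytes, 20.8 ± 4.44 in glutamatergic nuclei and 18.8 ± 8.52 in microglia-PVM. No neighbouring pair in either order differed beyond its spread. Over 19 classes the Pearson r between the log2 levels of the 2 receptors was -0.27, as a description of points that share libraries and depth.

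Fkbp5, the co-chaperone, was highest in VLMC, the fibroblast-like cells of the meninges and vessels, at 240 ± 129 CPM, and next in microglia-PVM at 93.9 ± 43.4 CPM. VLMC exceeded microglia-PVM in 14 of 15 mice, with a paired difference of 149 ± 121 CPM, and microglia-PVM exceeded oligodendrocytes (44.3 ± 21.9 CPM) in 16 of 16 mice. The remaining broad classes stood at 39.1 ± 23.0 in OPC, 34.4 ± 28.6 in endothelial nuclei, 30.8 ± 58.4 in pericytes, 23.7 ± 5.78 in GABAergic nuclei, 23.3 ± 10.3 in astrocytes and 18.9 ± 3.81 in glutamatergic nuclei. Among neurons the Sncg interneurons stood apart at 83.9 ± 30.1 CPM, above oligodendrocytes, the next class in the order, in 15 of 16 mice. Vip followed at 35.6 ± 17.9 CPM, L5 ET at 27.4 ± 7.87, Lamp5 at 24.5 ± 19.1, L5/6 NP at 23.8 ± 8.22, L2/3 IT at 20.6 ± 5.41, Sst at 19.9 ± 11.7, L6 CT at 17.8 ± 4.70, L6 IT at 16.3 ± 6.76, L5 IT at 14.2 ± 3.05 and Pvalb at 10.9 ± 6.15.

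Sgk1, the kinase, was highest in oligodendrocytes, at 191 ± 106 CPM with single mice between 30.5 and 398 CPM, above microglia-PVM (63.2 ± 26.6 CPM) in 15 of 16 mice. VLMC had 55.5 ± 27.1 CPM, GABAergic nuclei 39.5 ± 7.06, OPC 39.0 ± 10.8, endothelial nuclei 36.1 ± 18.8, pericytes 32.4 ± 52.7, glutamatergic nuclei 26.9 ± 5.84 and astrocytes 20.6 ± 7.40, and glutamatergic nuclei exceeded astrocytes in 14 of 16 mice. OPC, the precursors of oligodendrocytes, thus had a lower mean than the mature cells. Among neurons L6 CT was highest at 57.0 ± 11.5 CPM, followed by Vip at 51.5 ± 22.7, Lamp5 at 50.3 ± 21.7 and Pvalb at 47.9 ± 15, while L5/6 NP had 31.7 ± 18.4, L2/3 IT 25.7 ± 6.94, L6 IT 25.2 ± 9.34, L5 ET 24.6 ± 6.48, Sst 21.9 ± 14.4, Sncg 19.7 ± 12.9 and L5 IT 17 ± 2.96.

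Tsc22d3, which encodes GILZ, had higher means in the vascular and glial classes other than OPC than in any neuronal subtype. It stood at 99.7 ± 46.7 CPM in endothelial nuclei, 70.0 ± 32.6 in oligodendrocytes, 58.4 ± 13.8 in astrocytes, 53.8 ± 20.6 in VLMC, 42.7 ± 66.3 in pericytes, 30.9 ± 16.8 in microglia-PVM and 22.5 ± 10.1 in OPC. GABAergic nuclei had 19.3 ± 6.24 CPM and exceeded glutamatergic nuclei, at 10.7 ± 1.54 CPM, in 15 of 16 mice, the only neighbouring step beyond its spread. Subtypes ranged from 26.3 ± 20.6 CPM in Lamp5 and 23.8 ± 10.9 in Pvalb through 21.2 ± 15.6 in Vip, 20.9 ± 8.80 in L5/6 NP, 17.6 ± 15.8 in Sncg, 16.4 ± 9.08 in Sst, 13.5 ± 7.05 in L6 CT and 11.7 ± 4.43 in L5 ET to 8.90 ± 1.91 in L5 IT, 8.61 ± 2.10 in L2/3 IT and 7.30 ± 4.01 in L6 IT.

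Zbtb16, which encodes the transcription factor PLZF, was highest in Sncg (130 ± 50.9 CPM), Lamp5 (128 ± 36.8 CPM) and Vip (119 ± 21.5 CPM) interneurons. Vip interneurons exceeded L5/6 NP neurons, the next class at 77.4 ± 21.2 CPM, in 16 of 16 mice. Sst interneurons had 36.9 ± 17.7 CPM and Pvalb interneurons 24.7 ± 9.89. Among glutamatergic subtypes L5 ET had 53.7 ± 12.2 CPM, L5 IT 47.3 ± 9.20, L6 CT 31 ± 7.97, L6 IT 29.1 ± 8.64 and L2/3 IT 25.3 ± 5.44. The broad classes held 66.6 ± 56.3 CPM in VLMC, 53.6 ± 9.49 in GABAergic nuclei, 50.7 ± 35.6 in oligodendrocytes, 40.1 ± 26.6 in endothelial nuclei, 38.8 ± 7.16 in glutamatergic nuclei, 27.9 ± 19.5 in OPC, 25.4 ± 7.54 in astrocytes, 21.1 ± 39.4 in pericytes and 19.7 ± 8.62 in microglia-PVM.

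Hsd11b1, the glucocorticoid-regenerating enzyme, was sparse, and astrocytes were the class in which it was seen in every mouse with the highest mean, 19.5 ± 5.05 CPM, between 11.3 and 31.4 CPM on 214 UMIs. Pericytes had 14.6 ± 24.2 CPM on 6 UMIs in all, and astrocytes exceeded them in 11 of 16 mice, a step within its spread. VLMC had 5.03 ± 8.04 CPM, endothelial nuclei 4.36 ± 9.69, microglia-PVM 2.97 ± 3.13, OPC 2.91 ± 4.26, GABAergic nuclei 2.84 ± 1.62, oligodendrocytes 2.72 ± 4.00 and glutamatergic nuclei 1.89 ± 0.588. The nuclei without a name stood at 9.48 ± 2.62 CPM. Of the subtypes, Sncg had 8.0 ± 9.56 CPM and the others between 0.726 ± 2.11 in Sst and 3.88 ± 4.89 in Vip, leaving aside the Meis2 subtype, most of whose nuclei came from a single mouse.

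Genes with the most similar pattern were sought over the same 19 classes by the Pearson r of log2(CPM + 1) among 14033 genes, a measure that reflects shared classes and carries no test. For Nr3c1 these were Me1 (r = 0.895), Larp7 (0.858) and Pnrc2 (0.849), and for Nr3c2 Cntfr (0.822), Adam12 (0.797) and Wnt5a (0.779). For Fkbp5 they were 4833418N02Rik (0.83), C2 (0.818) and Nsa2 (0.816). For Sgk1 they were Foxn3 (0.836), Opalin (0.814) and Nkx6-2 (0.811), the last pair known as oligodendrocyte genes. For Tsc22d3 they were Prelid3b (0.933), Lamp1 (0.931) and Spcs2 (0.919), for Hsd11b1 Sardh (0.855), Fgfr3 (0.828) and Acsbg1 (0.824), the last pair abundant in astrocytes, and for Zbtb16 Scml4 (0.827), Gm48346 (0.819) and Klhl12 (0.784).

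Group differences were tested on the sums per mouse and class with edgeR's quasi-likelihood test and Benjamini-Hochberg adjustment over all genes tested in a class, and an adjusted p no larger than 0.05 counted as a call. Low counts removed many pairs of a member and a class, since the filter was passed in 33 of 63 pairs over the 9 broad classes: 8 classes for Nr3c1, 6 for Fkbp5, 5 for Sgk1 and for Tsc22d3, 4 for Zbtb16, 3 for Nr3c2 and 2 for Hsd11b1. The comparisons ask whether alcohol exposure, the 3xTg-AD genotype or both together moved these genes. A single pair was called in a single comparison: Zbtb16 was lower in oligodendrocytes of alcohol-exposed 3xTg-AD mice than in those of WT controls, and Nr3c1, Nr3c2, Fkbp5, Sgk1, Tsc22d3 and Hsd11b1 were called in no class. This was 1 of 33 pairs where 1.59% of all gene and class pairs were called, so the share of the members lay near the background.

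In the comparison of alcohol-exposed 3xTg-AD mice with WT controls, 24 of the 33 pairs had lower values and 5 had an unadjusted p under 0.05, against 14.4% of all pairs. The 2 groups did not overlap in 4 of 33 pairs, against 7.57% of all pairs. For alcohol averaged over genotypes 0 of 33 pairs were called (background 1.19%) and 3 had an unadjusted p under 0.05 (background 14.7%). For genotype averaged over exposures 0 of 33 were called (background 1.41%) and 4 had an unadjusted p under 0.05 (background 11.2%). Alcohol within WT mice gave 0 calls (0.0156%), 2 pairs with an unadjusted p under 0.05 (9.85%) and 1 pair without overlap (5.67%). Alcohol within 3xTg-AD mice gave 0 calls (0.176%), 0 pairs with an unadjusted p under 0.05 (9.37%) and 1 pair without overlap (5.48%). Genotype without alcohol gave 0 calls (0.243%), 2 pairs with an unadjusted p under 0.05 (6.79%) and 0 without overlap (3.48%), and genotype under alcohol gave 0 calls (0.511%), 2 such pairs (9.26%) and 2 without overlap (6.49%). The interaction of genotype and alcohol gave 0 calls (0.00348%) and 0 pairs with an unadjusted p under 0.05 (4.22%). DESeq2 gave 0 calls in each of the 8 comparisons. The median log2 difference over the 33 pairs was -0.19 for alcohol-exposed 3xTg-AD mice against WT controls, -0.14 for genotype averaged over exposures and -0.07 for alcohol averaged over genotypes, beside medians over all genes of 0.000914, -0.000763 and 0.000181. Without the 3 mice high in Gm42418 these medians were -0.14, -0.07 and 0.03, so that for alcohol averaged over genotypes changed sign, and 22, 21 and 16 of the 33 pairs had lower values. Pairs with an unadjusted edgeR p under 0.05 then numbered 4, 4 and 2 in these comparisons. They numbered 5 for alcohol within WT, 0 for alcohol within 3xTg-AD, 3 for genotype without alcohol, 4 for genotype under alcohol and 3 for the interaction. The VLMC pairs then rested on 1 WT control, and the shares of all pairs were not computed for this setting.

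In the 12 neuronal subtypes 44 pairs passed the filter and 0 were called in any of the 8 comparisons. The backgrounds were 1.26% for alcohol-exposed 3xTg-AD mice against WT controls, 1.1% for genotype averaged over exposures, 0.845% for alcohol averaged over genotypes, 0.418% for genotype under alcohol, 0.213% for alcohol within 3xTg-AD mice, 0.186% for genotype without alcohol, 0.0416% for alcohol within WT mice and 0.00612% for the interaction. An unadjusted p under 0.05 was found in 13, 9, 5, 2, 1, 6, 4 and 2 of the 44 pairs in the same order of comparisons, beside 12.6%, 10.7%, 13.2%, 8.89%, 8.58%, 6.49%, 8.77% and 4.15% of all pairs. DESeq2 also gave 0 calls. The groups did not overlap in 3 of the 44 pairs for alcohol-exposed 3xTg-AD mice against WT controls and in 3 for alcohol within 3xTg-AD mice. The counts were 2 for genotype under alcohol, 1 for genotype without alcohol and 0 for alcohol within WT mice. The share of all genes without overlap was not computed for subtypes, so these counts have no background beside them. For exposed 3xTg-AD mice against WT controls 37 of the 44 pairs had lower values, with a median log2 difference of -0.35 beside -0.00326 for all genes. With the 3 mice high in Gm42418 left out, 29 of the 44 pairs were lower, the median was -0.10 and 6 pairs had an unadjusted p under 0.05. For alcohol within WT mice 35 of the 44 pairs were lower with a median of -0.21. Without the 3 mice 19 pairs were lower and that median was 0.02. Subtypes of a class share their mice, and several comparisons share the same control group, so these counts are not independent of each other.

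**Figure D2:**
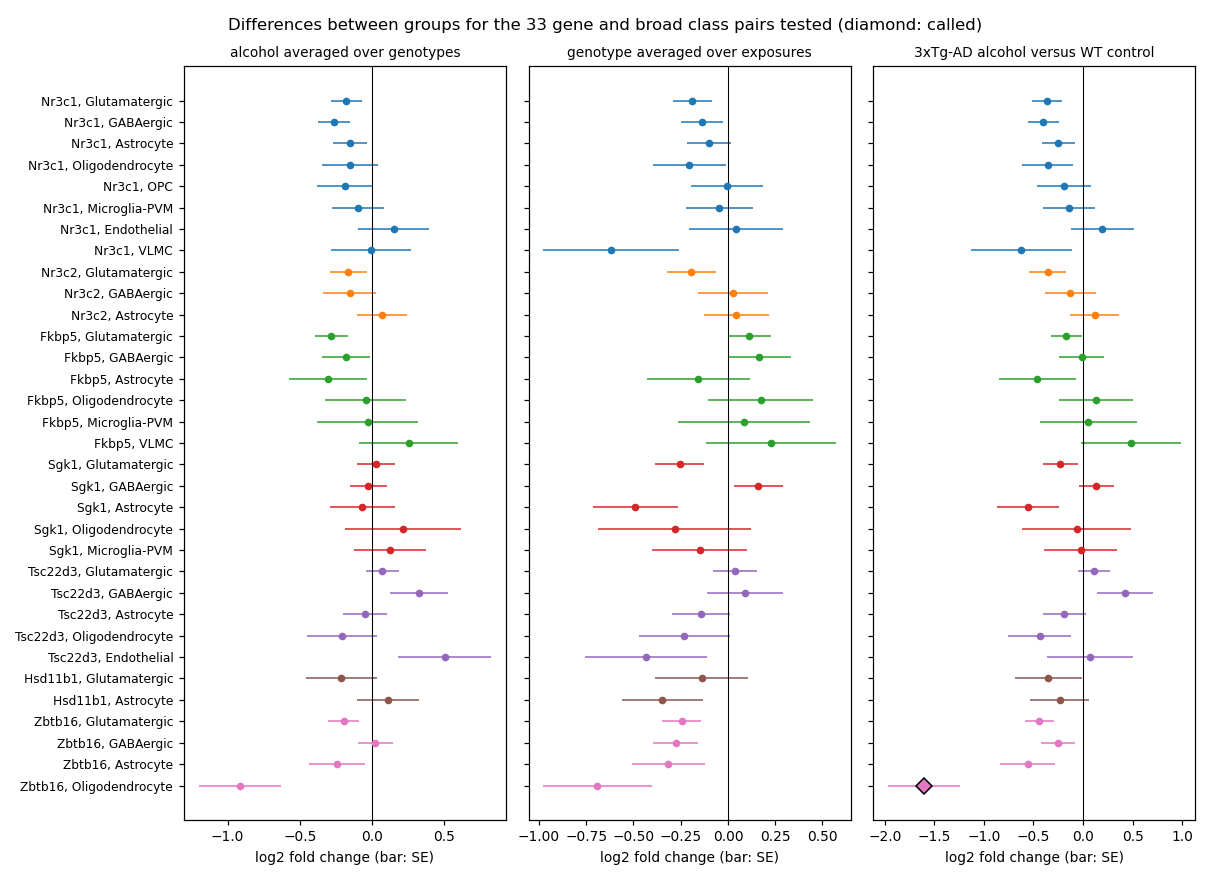
Log2 fold change ± SE from the edgeR fit for the 33 pairs of a member and a broad class that passed the filter, for alcohol averaged over genotypes, genotype averaged over exposures and alcohol-exposed 3xTg-AD mice against WT controls, with a diamond where the adjusted p was at most 0.05. Zbtb16 in oligodendrocytes, at -1.61 in the third comparison, is the only diamond.

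Zbtb16 in oligodendrocytes stood at 71.0, 143, 34.9 and 94.0 CPM in WT controls 26, 27, 28 and 36. The alcohol-exposed 3xTg-AD mice (4, 31, 33 and 34) had 49.7, 10.2, 25.4 and 38.2 CPM. Alcohol-exposed WT mice (6, 7, 17 and 18) had 78.8, 15.3, 43.7 and 28.7 CPM, and 3xTg-AD controls (12, 13, 14 and 21) had 84.0, 46.5, 8.24 and 40.3 CPM. The group means were 85.6 ± 45.1 CPM in WT controls and 30.9 ± 17 CPM in alcohol-exposed 3xTg-AD mice (SD, n = 4 each), with mouse 28 inside the range of the exposed 3xTg-AD mice, so the groups overlapped. The difference was -1.61 on the log2 scale (SE 0.36, edgeR adjusted p = 0.0144), in a class where 21 of 5326 genes (0.394%) were called and 0.188% were called lower. It rested on few molecules, with 21, 28, 2 and 36 UMIs in the WT controls and 10, 3, 4 and 12 UMIs in the exposed 3xTg-AD mice from classes of 45 to 331 nuclei per mouse. The call was lost without WT control 27 (-1.36, adjusted p = 0.107), without exposed 3xTg-AD mouse 31 (-1.26, adjusted p = 0.155), without the 3 mice high in Gm42418 (-1.43, adjusted p = 0.353) and with DESeq2 (adjusted p = 0.232).

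Marker sums of these oligodendrocyte nuclei overlapped between the same groups. The 7 glutamatergic markers, none of them at 0 in any mouse, summed to 3725 CPM in WT control 26, to 2497 to 2549 CPM in the other WT controls and to 2436 to 2748 CPM in exposed 3xTg-AD mice. The 6 GABAergic markers, of which up to 2 were at 0 in a mouse, summed to 244 to 402 CPM in WT controls and 182 to 298 CPM in exposed 3xTg-AD mice. The 7 astrocyte markers, of which up to 1 was at 0, summed to 314 to 423 CPM and 353 to 577 CPM, and the 8 microglia-PVM markers, of which 1 to 4 were at 0, to 45.8 to 112 CPM and 89.5 to 131 CPM. The 8 oligodendrocyte markers summed to 8048 to 11985 CPM in WT controls and 11393 to 14732 CPM in exposed 3xTg-AD mice. Their part in the Zbtb16 result was not tested. The other comparisons of Zbtb16 in oligodendrocytes passed no threshold after adjustment, with -1.12 for alcohol within WT mice (SE 0.36, edgeR adjusted p = 0.405) and -0.91 for alcohol averaged over genotypes (SE 0.29, adjusted p = 0.258). Leaving out the 3 mice high in Gm42418 gave -0.95 (SE 0.47, adjusted p = 0.819) and -0.53 (SE 0.38, adjusted p = 0.797).

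**Figure D3:**
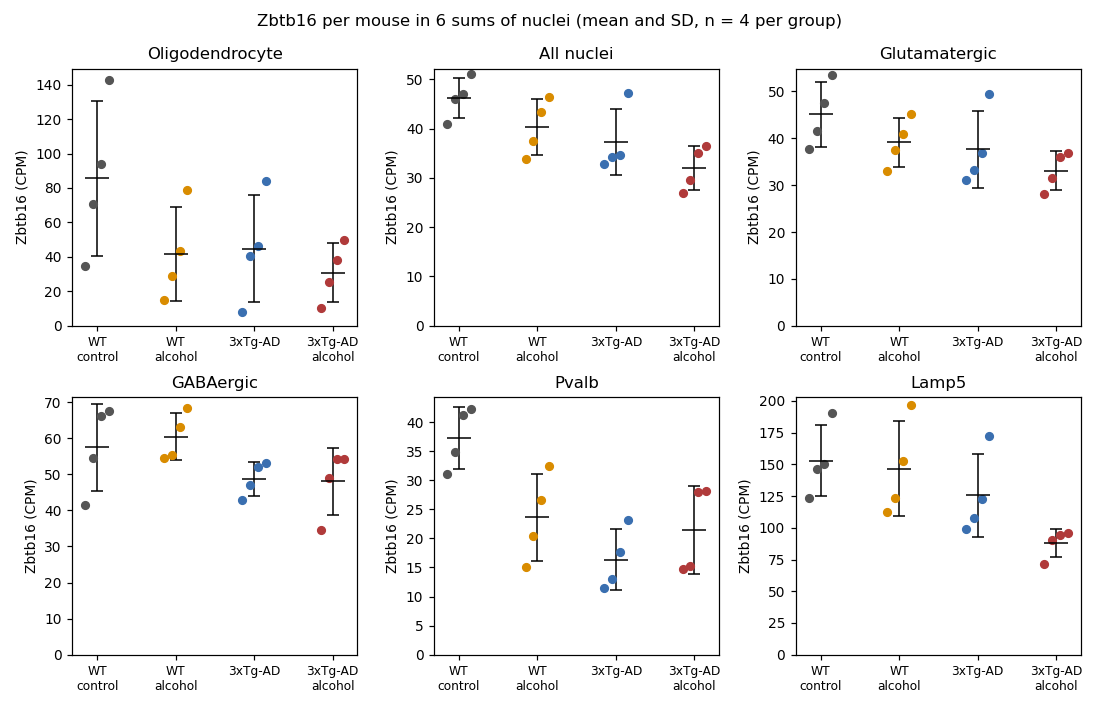
Zbtb16 level (CPM) in each of the 4 groups for oligodendrocytes, all nuclei, glutamatergic, GABAergic, Pvalb and Lamp5 nuclei, with 1 point per mouse and the mean and SD of 4 mice. In all nuclei the WT controls (40.9 to 51.0 CPM) lie above the alcohol-exposed 3xTg-AD mice (26.9 to 36.4 CPM), while the same groups overlap in oligodendrocytes.

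Zbtb16 was also lower when the counts of all nuclei of a mouse were summed, a sum in which fewer nuclei of a type and less RNA per nucleus cannot be told apart. WT controls 26, 27, 28 and 36 had 45.9, 51.0, 40.9 and 47.0 CPM, and 3xTg-AD mice 4, 31, 33 and 34 exposed to alcohol had 35.0, 29.5, 26.9 and 36.4 CPM, without overlap. WT mice 6, 7, 17 and 18 exposed to alcohol had 43.4, 46.4, 33.9 and 37.5 CPM, and 3xTg-AD controls 12, 13, 14 and 21 had 47.2, 34.3, 34.7 and 32.8 CPM, so both groups lay between or across the others. Zbtb16 fell by 0.53 on the log2 scale (SE 0.13, edgeR adjusted p = 0.0338) from WT controls to exposed 3xTg-AD mice, the only member called among 7, where 4.06% of genes were called, 2.5% were called lower and 10.9% did not overlap. DESeq2 gave -0.53 with an adjusted p of 0.0115. Without the 3 mice high in Gm42418 the value was -0.46 (adjusted p = 0.0734), and the call was also lost without exposed 3xTg-AD mouse 31 or 33 or WT control 26, 27 or 36 (-0.53 to -0.46, adjusted p of 0.0555 to 0.103). With Gm42418 as a covariate it was -0.37 (adjusted p = 0.197), and without the 5 exposed mice with conflicting numbers, which left 1 exposed 3xTg-AD mouse, -0.40 (adjusted p = 0.750). In all, 19 of 27 alternatives kept the call. The 6 GABAergic markers, whose class had the higher Zbtb16 level of the 2 neuronal classes, summed to 325 to 581 CPM in WT controls and 254 to 306 CPM in exposed 3xTg-AD mice, without overlap. The 581 CPM came from WT control 27, with mostly Meis2-like GABAergic nuclei, and the other WT controls had 325 to 348 CPM. GABAergic nuclei numbered 669 of 6988, 1482 of 4962, 755 of 6977 and 632 of 6464 in WT controls 26, 27, 28 and 36. They numbered 794 of 9077, 831 of 7198, 630 of 9096 and 455 of 4955 in exposed 3xTg-AD mice 4, 31, 33 and 34, so these shares overlapped. The 8 microglia-PVM markers, of the class with the lowest mean Zbtb16 level, also separated, at 79.8 to 110 CPM in WT controls and 117 to 157 CPM in exposed 3xTg-AD mice. The 7 astrocyte markers summed to 511 to 705 CPM and 596 to 891 CPM, the 7 glutamatergic markers to 2727 to 3925 CPM and 2647 to 3316 CPM and the 8 oligodendrocyte markers to 248 to 699 CPM and 432 to 791 CPM, with overlap. The part of these markers in the result was not tested.

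Within single neuronal classes Zbtb16 had lower values in the same comparison without a call. In glutamatergic nuclei WT controls 26, 27, 28 and 36 had 41.6, 53.6, 37.7 and 47.5 CPM and exposed 3xTg-AD mice 4, 31, 33 and 34 had 36, 31.5, 28.1 and 36.9 CPM. These groups did not overlap, with a difference of -0.44 (SE 0.15, edgeR adjusted p = 0.0999), which was -0.36 (adjusted p = 0.170) without the 3 mice high in Gm42418. In Lamp5 interneurons WT controls had 123, 191, 146 and 150 CPM and exposed 3xTg-AD mice 94.7, 71.4, 95.6 and 90.7 CPM. The difference was -0.75 (SE 0.29, edgeR adjusted p = 0.262), again without overlap, as in 3 of 44 subtype pairs, and -0.77 (SE 0.36, adjusted p = 0.50) without the 3 mice. The share of all genes without overlap was not computed for subtypes, so separation in Lamp5 and Pvalb has no background beside it. In Pvalb interneurons the 3xTg-AD controls had 23.1, 17.7, 13.1 and 11.5 CPM, all below the WT controls at 34.8, 31, 41.2 and 42.2 CPM (-1.22, SE 0.36, unadjusted p = 0.00137, edgeR adjusted p = 0.289). The value was -1.55 (SE 0.45, adjusted p = 0.198) without the 3 mice. For genotype averaged over exposures the sum of all nuclei gave -0.32 (SE 0.09, edgeR adjusted p = 0.0722), and -0.35 (SE 0.09, adjusted p = 0.0568) without the 3 mice.

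Nr3c1 differed by less than the threshold in every class. In glutamatergic nuclei WT controls 26, 27, 28 and 36 had 114, 98.2, 68.5 and 69.1 CPM, and exposed 3xTg-AD mice 4, 31, 33 and 34 had 71.4, 63.2, 62.5 and 74.4 CPM. WT mice 6, 7, 17 and 18 exposed to alcohol had 69.4, 72.0, 80.9 and 74.6 CPM, and 3xTg-AD controls 12, 13, 14 and 21 had 90.7, 63.6, 72.3 and 68.0 CPM. The 3 highest of the 16 values belonged to the 3 mice high in Gm42418. The difference between exposed 3xTg-AD mice and WT controls was -0.36 (SE 0.15, edgeR adjusted p = 0.171) with these mice and -0.02 (SE 0.10, adjusted p = 0.952) without them. In GABAergic nuclei WT controls had 82.9, 65.5, 55.2 and 63.0 CPM, all above the exposed 3xTg-AD mice at 50.3, 51.3, 48.0 and 51.6 CPM. That difference was -0.40 (edgeR adjusted p = 0.229) and became -0.24 (SE 0.18, adjusted p = 0.577) without the 3 mice. With Meis2-like and striatal-projection-like nuclei left out it was -0.49 (SE 0.16, adjusted p = 0.119). In astrocytes, the glial class with the most nuclei, the same difference was -0.25 (SE 0.17, adjusted p = 0.547), and -0.14 (SE 0.20, adjusted p = 0.845) without the 3 mice. In endothelial nuclei, the class with its highest mean, the 3xTg-AD controls 12, 13, 14 and 21 had 94.5, 130.0, 162 and 136 CPM, all below the exposed 3xTg-AD mice 4, 31, 33 and 34 at 167, 192, 200.1 and 192 CPM. This difference was 0.50 (SE 0.35, adjusted p = 0.669), and 0.37 (SE 0.37, adjusted p = 0.884) without the 3 mice. In VLMC, on 10 UMIs or fewer in each exposed 3xTg-AD mouse, exposed 3xTg-AD mice lay below exposed WT mice without overlap (-0.89, SE 0.42, adjusted p = 0.808) and below the 3 tested WT controls (-0.62, SE 0.51, adjusted p = 0.717), and the values without the mice high in Gm42418 were -0.85 (adjusted p = 0.903) and -0.16 (SE 1.14, adjusted p = 0.975).

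Nr3c2 was tested in 3 broad classes. In glutamatergic nuclei WT controls 26, 27, 28 and 36 had 31.7, 25.6, 19.2 and 20.2 CPM, WT mice 6, 7, 17 and 18 exposed to alcohol 19.6, 21.8, 20.2 and 19.5 CPM, 3xTg-AD controls 12, 13, 14 and 21 had 27.8, 20.3, 14.2 and 16.6 CPM, and exposed 3xTg-AD mice 4, 31, 33 and 34 had 16.7, 18, 22.7 and 17.9 CPM. The 3 highest values again came from the 3 mice high in Gm42418. The difference of exposed 3xTg-AD mice from WT controls was -0.36 (SE 0.18, edgeR adjusted p = 0.289) and became -0.07 (SE 0.15, adjusted p = 0.861) without them. It was -0.13 in GABAergic nuclei (SE 0.26, adjusted p = 0.878) and 0.12 in astrocytes (SE 0.25, adjusted p = 0.901), and without the 3 mice 0.21 (SE 0.24, adjusted p = 0.755) and 0.43 (SE 0.29, adjusted p = 0.612). Leaving out Meis2-like and striatal-projection-like nuclei gave -0.05 in GABAergic nuclei (SE 0.25, adjusted p = 0.953).

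Fkbp5 gave its smallest p-values in L5 ET neurons. WT controls 26, 27, 28 and 36 had 18.5, 39.9, 27.5 and 35.1 CPM, and WT mice 6, 7, 17 and 18 exposed to alcohol had 16.2, 14.4, 20.7 and 17.7 CPM. The 3xTg-AD controls 12, 13, 14 and 21 had 29.1, 29.8, 34.5 and 33.1 CPM, and the exposed 3xTg-AD mice 4, 31, 33 and 34 had 34.9, 34.5, 26.3 and 26.9 CPM. Exposed 3xTg-AD mice lay above exposed WT mice without overlap, for which no background share was computed in subtypes (0.81, SE 0.23, unadjusted p = 0.00148, edgeR adjusted p = 0.184). Alcohol within WT mice gave -0.79 (SE 0.24, unadjusted p = 0.00237, adjusted p = 0.430) and alcohol within 3xTg-AD mice gave -0.03 (SE 0.21, adjusted p = 0.991), and the interaction had an unadjusted p of 0.0234 and an adjusted p of 1.0. Without the 3 mice high in Gm42418 these differences were 0.81 (adjusted p = 0.0734), -0.85 (adjusted p = 0.360) and -0.06 (adjusted p = 0.953), and the interaction had an adjusted p of 0.968. In all glutamatergic nuclei alcohol within WT mice gave -0.50 (adjusted p = 0.318), with 15.6, 20.8, 20.4 and 28.8 CPM in WT controls and 13.6, 13.3, 18.6 and 14.8 CPM after alcohol, which overlap. Without the 3 mice high in Gm42418 this value was -0.71 (SE 0.17, adjusted p = 0.249). In VLMC and microglia-PVM, the classes with the highest Fkbp5 levels, the difference of exposed 3xTg-AD mice from WT controls was 0.48 (SE 0.50, adjusted p = 0.778) and 0.05 (SE 0.49, adjusted p = 0.985), and 0.22 (SE 0.99, adjusted p = 0.955) and -0.17 (SE 0.69, adjusted p = 0.969) without the 3 mice.

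Sgk1 varied widely between mice in oligodendrocytes and did not follow the groups. WT controls 26, 27, 28 and 36 had 152, 301, 69.8 and 209 CPM, and WT mice 6, 7, 17 and 18 exposed to alcohol had 184, 30.5, 398 and 230 CPM. The 3xTg-AD controls 12, 13, 14 and 21 had 103, 85.3, 231 and 309 CPM, and the exposed 3xTg-AD mice 4, 31, 33 and 34 had 303, 258, 76.3 and 111 CPM. Each group held both low and high mice, and the difference of exposed 3xTg-AD mice from WT controls was -0.07 (SE 0.55, edgeR adjusted p = 0.987), and 0.08 (SE 0.74, adjusted p = 0.990) without the 3 mice high in Gm42418. In L2/3 IT neurons genotype averaged over exposures gave -0.44 (unadjusted p = 0.00471, edgeR adjusted p = 0.113), which became -0.26 (SE 0.14, adjusted p = 0.433) without these mice. In astrocytes the same comparison gave -0.49 (SE 0.22, adjusted p = 0.442), and -0.60 (SE 0.25, adjusted p = 0.392) without them.

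Tsc22d3 in GABAergic nuclei was called in no comparison. WT controls 26, 27, 28 and 36 had 17.9, 15.3, 13.6 and 16.9 CPM, below all 4 exposed WT mice at 20.8, 27.4, 18.8 and 18.9 CPM and all 4 exposed 3xTg-AD mice at 27.4, 18.1, 19.3 and 20.4 CPM. The differences were 0.41 (SE 0.28, edgeR adjusted p = 0.642) and 0.42 (SE 0.28, adjusted p = 0.538). The 3xTg-AD controls 12, 13, 14 and 21 had 8.80, 20.2, 33.8 and 11 CPM, which include the lowest and the highest of the 16 values. Alcohol within 3xTg-AD mice gave 0.25 (SE 0.29, adjusted p = 0.872), with overlap. In the same order, the 3 differences were 0.45, 0.47 and -0.00282 without the 3 mice high in Gm42418 (adjusted p of 0.698, 0.506 and 0.998) and 0.40, 0.47 and 0.27 without Meis2-like and striatal-projection-like nuclei (adjusted p of 0.633, 0.458 and 0.816). In endothelial nuclei, where the level was highest, alcohol averaged over genotypes gave 0.51 (SE 0.32, adjusted p = 0.592), with single mice between 23.1 and 189 CPM, and 0.43 (SE 0.36, adjusted p = 0.823) without the 3 mice.

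Hsd11b1 in astrocytes stood at 16.4, 20.3, 19.7 and 25.0 CPM in WT controls 26, 27, 28 and 36, and at 26.8, 31.4, 16.5 and 18.1 CPM in WT mice 6, 7, 17 and 18 exposed to alcohol. The 3xTg-AD controls 12, 13, 14 and 21 had 16.9, 17.6, 20.3 and 11.3 CPM, and the exposed 3xTg-AD mice 4, 31, 33 and 34 had 17.4, 14.1, 17 and 23.7 CPM. All groups overlapped, with a difference of -0.35 for genotype (SE 0.21, edgeR adjusted p = 0.644) and 0.11 for alcohol (SE 0.21, adjusted p = 0.877), each averaged over the other factor. Both remained uncalled without the 3 mice high in Gm42418, at -0.42 (SE 0.24, adjusted p = 0.620) and 0.05 (SE 0.24, adjusted p = 0.963).

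The levels of the members were also compared with each other across the 16 mice, over 42 pairs of members in glutamatergic nuclei and astrocytes, as log2(CPM + 1) centred on the mean of the group of each mouse, with mice permuted within their group. Pearson's r was positive in 20 of the 42 pairs, 4 pairs had an unadjusted p under 0.05 and 1 passed the adjustment. Nr3c1 and Sgk1 in glutamatergic nuclei had r = 0.855 (permutation test with 100000 resamples, p = 0.0002, adjusted p = 0.0084) and Spearman's rho = 0.806 (permutation p = 0.00185, adjusted p = 0.0777). Leaving out the pair of mice whose centred Nr3c1 level deviated most from its median gave r = 0.710. Without the 3 mice high in Gm42418 r was 0.701 over 13 mice (permutation p = 0.0168, adjusted p = 0.268), rho was 0.610 (permutation p = 0.0546) and r without the 2 farthest mice was 0.401, so the adjusted result was lost on 13 mice. It was also lost without 3xTg-AD control 12 alone (r = 0.826, permutation, adjusted p = 0.0605) or WT control 26 alone (r = 0.784, permutation, adjusted p = 0.0655). Sgk1 in glutamatergic nuclei had its highest value, 41.5 CPM, in WT control 26, which also had the highest Nr3c1 value.

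**Figure D4:**
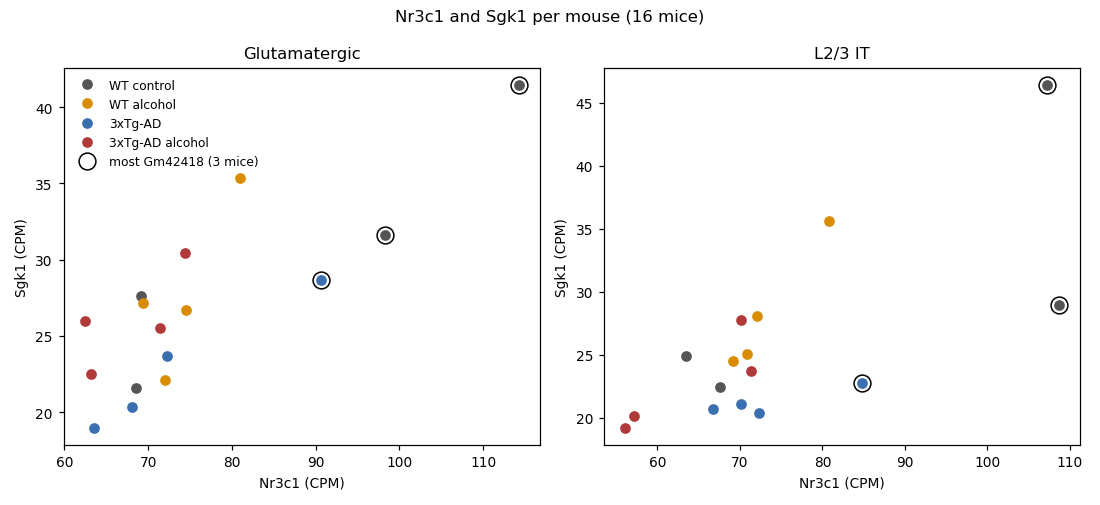
Sgk1 against Nr3c1 (CPM per mouse) in glutamatergic nuclei and in L2/3 IT neurons, with 1 point per mouse, coloured by group, and the 3 mice high in Gm42418 ringed. Points are uncentred levels, while r was computed on centred log2 levels, at 0.855 in glutamatergic nuclei and 0.772 in L2/3 IT neurons over 16 mice.

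Both genes were highest among glutamatergic subtypes in L6 CT, which made up 5.69% to 23.9% of the glutamatergic nuclei of a mouse, so the pair was also examined within 5 glutamatergic subtypes, a comparison chosen after seeing the data. Within L2/3 IT neurons r was 0.772 (permutation p = 0.00346, adjusted over the 5 subtypes p = 0.0173) and 0.80 without the 3 mice high in Gm42418 (permutation p = 0.0282, adjusted p = 0.0704), which lost the call. Within L6 CT r was 0.690 and within L6 IT 0.596 (permutation, adjusted p = 0.0589 for both), within L5 ET 0.413 (permutation p = 0.156) and within L5 IT 0.0286 (permutation p = 0.939). Without the 3 mice high in Gm42418 r was 0.267 in L6 CT (permutation, adjusted p = 0.678), 0.749 in L6 IT (permutation, adjusted p = 0.0299), 0.120 in L5 ET and -0.109 in L5 IT (permutation, adjusted p = 0.801 for both). The remaining pairs with an unadjusted p under 0.05 were Nr3c2 and Tsc22d3 in glutamatergic nuclei (r = -0.576, permutation p = 0.0317), Sgk1 and Hsd11b1 in glutamatergic nuclei (r = -0.514, permutation p = 0.0481) and Fkbp5 and Tsc22d3 in astrocytes (r = 0.535, permutation p = 0.0391).

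Other genes of the pathway, in lists that hold none of the members, were called in few classes. Of 34 glucocorticoid-induced genes, 30 were tested in glutamatergic nuclei, and 0 of these were called in alcohol-exposed 3xTg-AD mice against WT controls, where 3.41% of genes were called, with a median log2 difference of 0.05 beside 0.00314 for all genes. Mt1, a metallothionein that binds zinc and copper and is induced by glucocorticoids, was the list member called most often. The lists were chosen with earlier results of these data known. The study itself reported higher Mt1 in astrocytes of alcohol-exposed 3xTg-AD mice than of WT controls. In glutamatergic nuclei Mt1 stood at 124, 129, 108 and 131 CPM in WT mice 17, 18, 6 and 7 exposed to alcohol and at 150, 227, 189 and 190 CPM in 3xTg-AD mice 31, 33, 34 and 4 exposed to alcohol. Every exposed 3xTg-AD mouse lay above every exposed WT mouse, with a difference of 0.62 on the log2 scale (SE 0.13, edgeR adjusted p = 0.0234), in a comparison where 0.887% of genes were called. WT controls 26, 27, 28 and 36 had 168, 150, 133 and 138 CPM, all above the exposed WT mice. The 3xTg-AD controls 12, 13, 14 and 21 had 126, 173, 146 and 164 CPM. Both control groups overlapped with the exposed 3xTg-AD mice. Astrocytes, where Mt1 stood higher, made up 5.04% to 6.42% of the nuclei of exposed WT mice and 7.30% to 8.68% of those of exposed 3xTg-AD mice. Their part in the glutamatergic value was not tested. The glutamatergic call was kept in 22 of 26 alternatives. Those that lost it included the ones without exposed 3xTg-AD mouse 33 (0.52, edgeR adjusted p = 0.0835) or 34 (0.62, adjusted p = 0.0517) and without exposed WT mouse 6 (0.56, adjusted p = 0.0774). Mice 17, 18, 31, 33 and 34, which this comparison uses, carry the conflicting genotype numbers. In astrocytes Mt1 stood at 793, 752, 867 and 899 CPM in 3xTg-AD controls 12, 13, 14 and 21 and at 942, 1361, 1564 and 1197 CPM in 3xTg-AD mice 31, 33, 34 and 4 exposed to alcohol, without overlap. This difference was 0.61 (SE 0.15, adjusted p = 0.0462, with 0.27% of genes called), and 13 of 26 alternatives kept it past the threshold, among them the one without the 3 mice high in Gm42418 (0.59, adjusted p = 0.0415). Against WT controls, which overlapped with the exposed 3xTg-AD mice, astrocytic Mt1 was higher by 0.59 (edgeR adjusted p = 0.0299, with 1.23% of genes called). This call was kept in 19 of 26 alternatives. Those that lost it included the ones without exposed 3xTg-AD mouse 33 or 34 or WT control 28 or 36 (0.47 to 0.55, adjusted p of 0.0846 to 0.136). The difference was 0.82 (SE 0.17, adjusted p = 0.00701) without the 3 mice high in Gm42418.

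The remaining calls of this list went in both directions. Htra1, a secreted serine protease, was higher in glutamatergic nuclei of exposed 3xTg-AD than of exposed WT mice (0.65, edgeR adjusted p = 0.0499). It was past the threshold in 8 of 26 alternatives. Htra1 stood at 7.03 to 9.58 CPM in exposed WT mice and 10.1 to 14.97 CPM in exposed 3xTg-AD mice. WT controls, at 12.3 to 13.5 CPM, lay within the latter range. Mfsd2a, a lipid transporter, was lower in OPC in the same comparison (-1.08, edgeR adjusted p = 0.0428). It was past the threshold in 16 of 26 alternatives, with 0.299% of genes called in OPC. Mfsd2a stood at 86.1 to 198 CPM in exposed WT mice and 44.04 to 81.01 CPM in exposed 3xTg-AD mice. WT controls, at 56.6 to 123 CPM, overlapped with both groups. Mice 17, 18, 31, 33 and 34, used in both results, carry the conflicting genotype numbers. Sult1a1, a sulfotransferase, was lower in glutamatergic nuclei with alcohol averaged over genotypes (-0.71, adjusted p = 0.0381, 13 of 25 alternatives), where 2.86% of genes were called, and had -0.74 (adjusted p = 0.0393) without the 3 mice high in Gm42418. Mt1 was higher in glutamatergic nuclei with genotype averaged over exposures (0.33, adjusted p = 0.048, 10 of 25 alternatives), where 3.03% were called, and the value without the 3 mice was 0.44 (adjusted p = 0.0153). In the sum of all nuclei Txnip, a thioredoxin-binding protein, and Gjb6, an astrocytic connexin, were higher in exposed 3xTg-AD mice than in WT controls (0.90, adjusted p = 0.0281, and 0.51, adjusted p = 0.0485), 2 calls among 34 genes of the list tested there, beside 4.06% of all genes, and Per1, a clock gene induced by glucocorticoids, was lower with alcohol averaged over genotypes (-0.50, adjusted p = 0.0408), where 3.3% were called. These 3 calls held in 20 of 27, 6 of 27 and 13 of 26 alternatives, and the values without the 3 mice were 1.25 (adjusted p = 0.00932), 0.64 (adjusted p = 0.0243) and -0.58 (adjusted p = 0.016). Txnip levels overlapped, with WT control 26 at 4.78 CPM and exposed 3xTg-AD mouse 31 at 4.57 CPM. Per1 levels also overlapped, at 43.6 to 79.3 CPM in unexposed and 35.8 to 57.8 CPM in exposed mice. Gjb6 levels did not overlap, at 10.4 to 14.8 CPM in WT controls and 15.7 to 20.3 CPM in exposed 3xTg-AD mice, beside 10.9% of all genes. Astrocytes made up 5.65% to 6.56% of the nuclei of WT controls and 7.30% to 8.68% of those of exposed 3xTg-AD mice, without overlap, and their part in the Gjb6 value was not tested.

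Of 24 receptor chaperones and coregulators, all 24 were tested in glutamatergic nuclei, and Tsg101, an endosomal sorting protein that also binds nuclear receptors, was the only one called, higher in exposed 3xTg-AD mice than in WT controls (0.41, edgeR adjusted p = 0.045), beside 3.41% of all genes called. It was past the threshold in 9 of 26 alternatives, with a lowest value of 0.26 with Gm42418 as a covariate (adjusted p = 0.234). The value was 0.28 (adjusted p = 0.214) without the 3 mice high in Gm42418. The median of this list was 0.00891 beside 0.00314 for all genes. Of 14 genes of steroid metabolism and transport, 3 were tested in endothelial nuclei and Tspo, an outer mitochondrial membrane protein linked to cholesterol import, was called. It stood at 91.0, 75.2, 69.4 and 74.0 CPM in WT controls 26, 27, 28 and 36 and at 162, 240, 302 and 176 CPM in exposed 3xTg-AD mice 31, 33, 34 and 4, without overlap. The difference was 1.35 (SE 0.35, edgeR adjusted p = 0.0342, with 0.847% of genes called), and it was 1.46 with an adjusted p of 0.293 without the 3 mice high in Gm42418, on fewer mice. It rested on 11, 5, 3 and 6 UMIs in these WT controls and on 16, 18, 11 and 19 UMIs in these exposed 3xTg-AD mice. The endothelial call was kept in 14 of 24 alternatives. In the sum of all nuclei Tspo was higher by 1.10 (adjusted p = 0.0242) and Srd5a1, a steroid reductase, was lower (-0.99, adjusted p = 0.049), 2 calls among 12 genes of the list tested there, beside 4.06% of all genes. These calls held in 21 and 13 of 27 alternatives, and the values were 1.14 (adjusted p = 0.0465) and -1.21 (adjusted p = 0.0424) without the 3 mice high in Gm42418. The microglia-PVM markers given above separated the same groups without overlap in this sum, and microglia-PVM made up 1.29% to 2.82% of the nuclei of WT controls and 2.74% to 5.49% of those of exposed 3xTg-AD mice, where mouse 4 overlapped. Their part in these values was not tested. Of 11 peptides and receptors of the corticosteroid axis, 10 were in the table, 7 were tested in glutamatergic nuclei and 0 were called by edgeR in exposed 3xTg-AD mice against WT controls (smallest adjusted p = 0.118), beside 3.41% of all genes.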

How the data were processed

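Nuclei of the PFC were processed with 10x Genomics 3′ chemistry, and the authors aligned the reads to mm10 with Cell Ranger 6.1.1 (based on STAR) and deposited UMI counts per gene and nucleus, without normalization. The 7 members and the pathway lists were chosen with earlier results of these data known. Groups came from the sample titles, and each sample is a separate mouse. Nuclei were clustered here (scikit-learn 1.9.0 and python-igraph 0.11.9) from 2000 variable genes without the members, with 30 principal components, 20 neighbours and a Leiden resolution of 1.5, and clusters were named from listed markers. No doublet caller was run. Each class needed 10 nuclei per mouse and 3 mice per group. Counts were summed per mouse and class and tested with edgeR 4.0.16 (R 4.3.3; TMM, filterByExpr, robust quasi-likelihood, all 4 groups in 1 fit), with p-values adjusted over all genes of a class. CPM scale the UMIs of a gene to a common total per class sum. Levels across mice were correlated as log2(CPM + 1) with TMM scaling, centred on the group mean.

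All members were named with their levels, with every call, and with the 6 smallest unadjusted p-values among the uncalled results. The 3 most similar genes per member came from genes of at least 10 CPM in a class, and at most 8 genes per list were named by adjusted p. With 200 genes changed in simulated counts for alcohol-exposed 3xTg-AD mice against WT controls, 77.0% of changes of 1 log2 unit were recovered in glutamatergic nuclei (15172 genes) and 62.8% in oligodendrocytes (5000 genes). The changed genes were drawn at random among those past the filter, and the simulation left out the Gm42418 difference between mice. These rates therefore do not give the recovery at the counts of the members. Alternatives were DESeq2 1.42.0, RLE normalization, no count filter, only the groups compared, Gm42418 as a covariate or its 3 highest mice left out, stricter nuclei filters, a resolution of 0.8, single mice left out, and 5 alcohol-exposed mice left out whose numbers are listed with the other genotype in the study's blood alcohol table. Leaving out Meis2-like and striatal-projection-like nuclei, and testing Nr3c1 and Sgk1 within subtypes, were chosen after seeing the data.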

Additional observations from a re-analysis of the deposited data

Results flagged for a closer look

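In 9 of 158 sets of 4 mice, 1 mouse lay far from the other 3 of its group by Dixon's criterion, and chance alone picks out about 1 in 20 groups.

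Fkbp5 in GABAergic nuclei was low in WT control 26, at 10.3 CPM against 28.9 to 32.5 CPM in the other WT controls, and this mouse is 1 of the 3 high in Gm42418. Fkbp5 in oligodendrocytes was low in 3xTg-AD control 21, at 20.2 CPM against 60.6 to 65.9 CPM, and high in 3xTg-AD mouse 4 exposed to alcohol, at 69.6 CPM against 41.4 to 44.5 CPM. In the same mouse 4, Tsc22d3 in the sum of all nuclei was high, at 27.6 CPM against 18.3 to 19.6 CPM, and Nr3c1 in microglia-PVM was low, at 95.0 CPM against 105 to 107 CPM. Nr3c1 in the sum of all nuclei was low in 3xTg-AD mouse 31 exposed to alcohol, at 70.8 CPM against 77.7 to 78.9 CPM. Hsd11b1 in the sum of all nuclei was high in 3xTg-AD mouse 33 exposed to alcohol, at 6.49 CPM against 3.80 to 4.07 CPM. Nr3c2 in the sum of all nuclei was high in WT mouse 7 exposed to alcohol, at 25.2 CPM against 21.7 to 22.2 CPM. Zbtb16 in the sum of all nuclei was high in 3xTg-AD control 12, at 47.2 CPM against 32.8 to 34.7 CPM, and this mouse is also high in Gm42418.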

How the results depend on the processing

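The count of 0 member calls in the other 7 comparisons was 0 under every alternative that was run in the broad classes. The single call in 3xTg-AD mice exposed to alcohol against WT controls became 0 with DESeq2, with Gm42418 as a covariate (Zbtb16 in oligodendrocytes -1.22, edgeR adjusted p = 0.570), without the 3 mice high in Gm42418 and without the 5% of nuclei with the most UMIs (-1.51, adjusted p = 0.0648). It was also 0 without the 5 alcohol-exposed mice with conflicting numbers (-0.88, adjusted p = 0.949), but this left 1 exposed 3xTg-AD mouse, assumed to vary like the other groups, and says little of the stability of the call. It ranged from 0 to 1 when single mice were left out. Of 26 alternatives, 19 kept the call, all with a negative value. The count of correlated pairs, 1, became 0 without the 3 mice high in Gm42418 and ranged from 0 to 2 when single mice were left out. The cause of these changes was not tested. Zbtb16 in all nuclei for genotype averaged over exposures was called in 1 of 26 alternatives, without 3xTg-AD control 12 (-0.39, edgeR adjusted p = 0.0174). In L2/3 IT neurons Nr3c1, Sgk1 and Zbtb16 were each called in 1 alternative, without WT control 36, without WT control 28 and at a resolution of 0.8. The level of each member in its highest broad class moved by less than 1 SD at a resolution of 0.8 and without the 5% of nuclei with the most UMIs, although pericytes took the highest mean for Hsd11b1 in the first (23.3 ± 38.8 CPM) and for Nr3c1 in the second (152 ± 90.9 CPM). The adjusted p from DESeq2 was not given for Fkbp5 in L5 ET, alcohol within WT, or Tspo in endothelial nuclei. No paired analysis was possible because each number belongs to a single mouse and the groups share none. Sparse counts limit the small classes, and levels in non-neuronal classes may include RNA of other classes.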

Other observations

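WT mouse 7 exposed to alcohol had the lowest oligodendrocyte levels of the 16 mice of Sgk1, at 30.5 CPM (2 UMIs), and Tsc22d3, at 15.3 CPM (1 UMI), on 61 oligodendrocyte nuclei. Its microglial Fkbp5 level, 9.53 CPM (1 UMI), was also the lowest of the 16 mice. The highest oligodendrocyte level of Sgk1, 398 CPM (155 UMIs), came from WT mouse 17 of the same group, on 311 nuclei.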
